A study of Mus musculus with 4 samples.

Results

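The 5 Deltex genes Dtx1, Dtx2, Dtx3, Dtx3l and Dtx4 and the Notch modulators Nrarp, Numb, Numbl, Fbxw7 and Itch were followed in an RNA-Seq washout experiment in mouse Beko cells. They were chosen by symbol, as genes of the Deltex family or as modulators of Notch signaling, and not every Deltex gene is taken here to act on Notch. Earlier results of these data were known at that choice. They make up 10 of the 24391 genes of the count table. All 10 were in the table, and all 10 passed the filter on low counts that left 12266 genes for testing. Beko cells are a single leukemic pre-T cell line, labelled as progenitor T cells, in which Notch signaling is constitutively active. In both conditions the cells were exposed to the γ-secretase inhibitor (GSI) DAPT for 48 h, with 2 libraries each. The GSI libraries were taken from cells in the inhibitor, and the washout libraries from cells that were washed and returned to culture for 24 h. The labels give 10 mg/ml DAPT, whereas the methods of the study state the dose in μg/ml, so the dose is uncertain. Washed cells were thus also in culture for longer, and no library of washed cells without inhibitor was used here, so that removal of GSI and time in culture cannot be told apart.

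Cleavage by γ-secretase releases the Notch intracellular domain (NICD), which joins the DNA-binding protein RBPJ and coactivators of the Mastermind family to activate target genes. Several proteins then limit or tune the signal. Nrarp is an ankyrin repeat protein made by a Notch target gene that binds the NICD and RBPJ and lowers NICD levels, Numb and Numbl are endocytic adaptors that antagonize the receptor, Itch is a HECT-type ubiquitin ligase, and Fbxw7 is the F-box protein that recruits the phosphorylated NICD to the SCF ubiquitin ligase. Deltex proteins are RING-type ubiquitin ligases, and Dtx1 is a well-known Notch target in developing T cells.

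The stretches upstream of Dtx1 and Nrarp, the members that rose upon washout, and of Dtx2, the other member with the core RBPJ motif there, are shown as the sequence context of the values that follow. Each covers the 250 bases before the gene start of GENCODE vM1 on mm9, read 5′ to 3′ on the strand of the gene. Capitals mark the RBPJ core TGGGAA or the GC box GGGCGG on either strand. The windows are chr5:121161937-121162186 on the minus strand for Dtx1, chr2:25036028-25036277 on the plus strand for Nrarp and chr5:136470420-136470669 on the plus strand for Dtx2.
Dtx1: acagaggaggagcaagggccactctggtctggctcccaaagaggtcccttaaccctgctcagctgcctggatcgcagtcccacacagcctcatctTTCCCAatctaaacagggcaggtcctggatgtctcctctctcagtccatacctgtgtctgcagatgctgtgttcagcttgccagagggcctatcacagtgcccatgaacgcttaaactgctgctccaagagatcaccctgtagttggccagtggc
Nrarp: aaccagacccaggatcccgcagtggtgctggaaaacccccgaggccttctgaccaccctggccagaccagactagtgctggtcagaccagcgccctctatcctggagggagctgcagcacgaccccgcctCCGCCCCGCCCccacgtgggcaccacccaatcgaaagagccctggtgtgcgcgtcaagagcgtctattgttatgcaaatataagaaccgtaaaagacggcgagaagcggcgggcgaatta
Dtx2: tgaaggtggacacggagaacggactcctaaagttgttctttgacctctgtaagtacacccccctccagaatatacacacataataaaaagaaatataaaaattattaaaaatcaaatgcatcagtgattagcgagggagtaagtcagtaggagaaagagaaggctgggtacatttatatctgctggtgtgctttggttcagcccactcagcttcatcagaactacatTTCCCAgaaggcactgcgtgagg
In the window of Dtx1 the core lies between 155 and 150 bases before the start, and in that of Dtx2 between 23 and 18 bases. The window of Nrarp holds 2 GC boxes that share a base, between 120 and 110 bases before the start, and no RBPJ core. The longer form GTGGGAA, which contains the core, was found in none of these windows. Of 14416 windows of the same length before protein-coding genes, 21.2% hold the core, 5.36% the longer form and 41.9% a GC box. Among the other members searched, the windows of Fbxw7 and Numb hold 3 GC boxes each, that of Numbl holds 1, and that of Dtx3l holds neither motif. The match of Dtx1 depends on which start is taken. The RefSeq promoter window of Dtx1 (300 bases, GRCm38.p6), which was searched first, holds no RBPJ core and 3 GC boxes. The RefSeq window of Nrarp holds 2 GC boxes, that of Dtx2 holds 1 RBPJ core and that of Numbl 6 GC boxes, and those of Numb and Fbxw7 hold up to 4 and 3. In the RefSeq windows, 25.6% of 32851 hold the core and 35.7% a GC box. No window for Dtx3, Dtx4 or Itch was searched. By ChIP-Seq in Beko cells, the study shows RBPJ binding at Dtx1 that was static upon GSI. That ChIP-Seq set 24 h of GSI against DMSO, and not the 48 h of GSI and the washout compared here. In it, the study found RBPJ sites that lose binding upon GSI mostly away from transcription start sites. Whether RBPJ binds the motif matches above was not tested.

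The libraries held between 13716199 and 36364200 counted reads, and replicate 1 was the deeper one in both conditions. The labels do not say that replicates were separate cultures, so p-values measure only the spread between these libraries. All 10 markers of progenitor T cells were above 1 CPM (counts scaled to the normalized library size). Their summed level was 5010 to 5497 CPM in the 4 libraries, but single markers moved in both directions. By the thresholds given below, Ptcra rose upon washout (log2 fold change 2.37) and Gata3 fell (-1.67). Cd3g (0.86) was higher and Tcf7 (-0.87) and Bcl11b (-0.72) were lower by the adjusted p-value alone. The other markers of this list did not pass the adjusted p-value. The summed B cell markers stayed at or below 0.548 CPM, and Pax5, Ebf1 and Ms4a1 were at 0. The 5 myeloid markers summed to 49.2 and 38.2 CPM in GSI and to 5.49 and 4.91 CPM upon washout, with Lyz2 at 0 in all libraries and only Itgam above 1 CPM. Of the 5 mast cell markers, 4 (Fcer1a, Ms4a2, Mcpt4 and Tpsb2) were at 0, and Cpa3 alone went from 175.7 and 77.4 CPM to 9.34 and 2.23 CPM. The 4 erythroid markers summed to 23.9 and 21.5 CPM in GSI and to 11.2 and 10.8 CPM upon washout, with Hbb-b1 at 0. The 4 stromal markers summed to 47.6 and 45.2 CPM against 27.9 and 36.5 CPM. In each of these lists 3 markers were above 1 CPM in at least 1 library. Past both thresholds, Gata1 (-1.26), Klf1 (-1.18) and Col1a1 (-3.59, at 4 and 0 counts upon washout) fell. Itgam (-3.08) and Cpa3 (-4.30) did as well. Epor (-0.86) and Pdgfrb (-0.51) were lower by the adjusted p-value alone. The part of these markers in the results below was not tested. In bulk RNA, fewer cells that express a gene and less RNA per cell cannot be told apart.

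Genes were called at an adjusted p-value under 0.05, from edgeR's quasi-likelihood test over all tested genes, with a log2 fold change above 1 or below -1, the thresholds of the study. Upon washout, 2 members rose past both thresholds (Dtx1 and Nrarp) and 1 fell (Dtx3), whereas 7.74% of all tested genes were called higher and 11.7% lower. With the adjusted p-value alone, 2 members were higher and 4 lower (Dtx3, Dtx4, Numb and Numbl), beside 27.0% and 25.4% of all tested genes. Without GSI replicate 1 the lower members were 2 (Dtx3 and Numb), and the lower count was 2 to 5 over the libraries left out. The median log2 fold change of the members was -0.28, and that of all tested genes was -0.01. The libraries of the 2 conditions did not overlap for 9 members, 3 higher and 6 lower upon washout, a pattern seen in 38.2% of all tested genes in the upward and 39.1% in the downward direction. With 10 genes these counts are small, and their difference from the background was not tested.

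**Figure D1:**
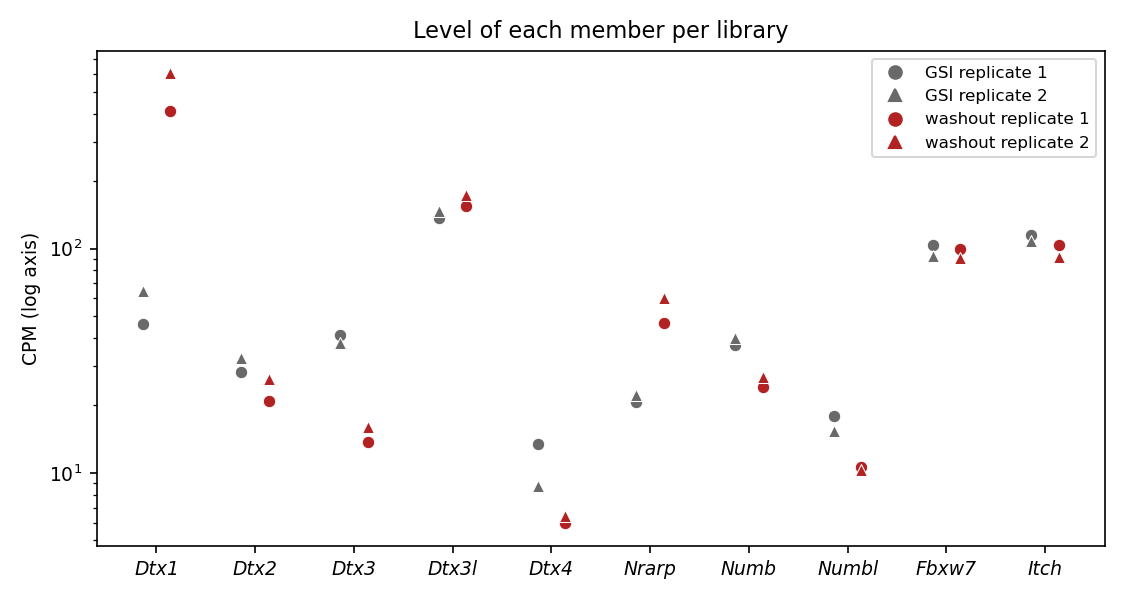
CPM of the 10 members (log axis) in each library, GSI in grey and washout in red, with circles for replicate 1 and triangles for replicate 2. Dtx1 lies at 46.1 and 64.4 CPM in GSI and at 409 and 605 CPM upon washout, and only Fbxw7 has overlapping groups.

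Dtx1, the Deltex ligase known as a Notch target, rose most among the members. It had 46.1 and 64.4 CPM in GSI replicates 1 and 2 and 409 and 605 CPM in washout replicates 1 and 2. Both washout libraries were far above both GSI libraries, and replicate 2 was the higher one in each condition. The mean was 55.2 ± 12.9 CPM in GSI and 507 ± 139 CPM upon washout (SD, n = 2 each). The log2 fold change was 3.20 (standard error 0.249, 95% interval 2.60 to 3.81, adjusted p = 0.000396), which is a 9.22-fold rise. Leaving out any library kept it between 2.91 and 3.47. Dtx1 lies on chromosome 5 from 121130211 to 121161936 on the minus strand (mm9) and overlaps no other annotated gene.

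The other Deltex genes did not follow Dtx1. Dtx3, a shorter family member that lacks the WWE domains of Dtx1, had 41.3 and 37.8 CPM in the GSI libraries and 13.7 and 16.1 CPM in the washout libraries. Both washout libraries lay below both GSI libraries, with a gap wider than the difference within either condition. Its log2 fold change was -1.42 (standard error 0.132, 95% interval -1.74 to -1.10, adjusted p = 0.000571), a level 2.68-fold lower. Dtx3 lies on chromosome 10 from 126627434 to 126632784 (minus strand). The noncoding RNA gene F420014N23Rik on the plus strand overlaps its span without sharing exonic bases and had a log2 fold change of -0.34.

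Dtx4, a ligase also known from innate immune signaling, had 13.4 and 8.77 CPM in the GSI libraries against 5.96 and 6.40 CPM in the washout libraries. The groups did not overlap, but the GSI libraries differed from each other by more than the lower of them differed from washout. The log2 fold change was -0.86 (standard error 0.245, adjusted p = 0.0262) and did not reach the fold threshold. It was -0.51 (adjusted p = 0.183) without GSI replicate 1 and -1.11 (adjusted p = 0.0114) without GSI replicate 2, so that it passed the adjusted p-value only with GSI replicate 1. Without washout replicate 1 the adjusted p was 0.0626, and with offsets for GC content and exon length it was 0.0598. Dtx4 maps to chromosome 19 from 12540831 to 12576486 (minus strand).

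Dtx2, which shares the WWE domains of Dtx1, had 28.2 and 32.5 CPM in the GSI libraries and 21.0 and 26.3 CPM in the washout libraries. The washout libraries were the lower ones, but the gap between the groups was smaller than the spread within each. The log2 fold change was -0.37 (95% interval -0.74 to 0.01, adjusted p = 0.0884). It came to -0.06 with the GC and length offsets, and to -0.51 (adjusted p = 0.0237) without washout replicate 2. Dtx2 lies on chromosome 5 from 136470670 to 136508742 (plus strand).

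Dtx3l forms a complex with the ADP-ribosyltransferase family protein Parp9 and takes part in interferon responses and DNA repair. It had 137 and 147 CPM in the GSI libraries and 154 and 174 CPM in the washout libraries. Both washout libraries were above both GSI libraries, by a gap smaller than the difference within either condition. Dtx3l had a log2 fold change of 0.21 (95% interval -0.05 to 0.46, adjusted p = 0.144). Dtx3l (chromosome 16 from 35926597 to 35939237, minus strand) and Parp9 (plus strand) lie head to head and share 458 exonic bases, and the strand setting of the counting is not given in the sources used here. Parp9 had 51.6 and 48.5 CPM in the GSI libraries and 80.9 and 78.1 CPM in the washout libraries, a log2 fold change of 0.67 (adjusted p = 0.00191) that is below the fold threshold. Of the other tested PARP partners, Parp10 was at -0.77, Parp12 at 0.27 and Parp14 at -0.18 on the log2 fold change scale, and none was called.

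**Figure D2:**
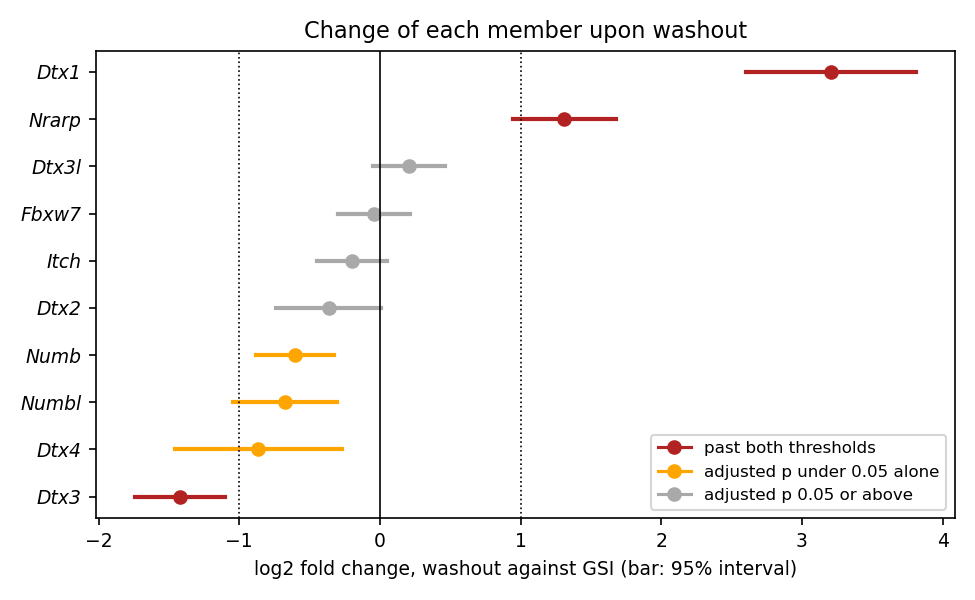
Log2 fold change upon washout of the 10 members with the 95% interval, colored by the thresholds passed, with dotted lines at -1 and 1. Dtx1 at 3.20 and Nrarp at 1.31 stand to the right and Dtx3 at -1.42 to the left, while the intervals of Dtx3l, Fbxw7, Itch and Dtx2 include 0.

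Per length, the Deltex family was led by Dtx3l in GSI and by Dtx1 upon washout. Reads were divided by the exon length of the GENCODE vM1 gene and scaled to the library (RPKM), since levels of different genes compare only per length, and the iGenomes models counted by the authors may differ. Summed over the 5 Deltex genes, the level was 56.3 and 60.4 RPKM in GSI and 124 and 171 RPKM upon washout. Without Dtx1 it was 46.4 and 46.6 RPKM in GSI and 36.3 and 41.5 RPKM upon washout. Dtx1 made up 17.6% and 22.9% of the sum in GSI and 70.7% and 75.8% upon washout, a difference of 53.0 percentage points. Dtx3l held the largest share in GSI, with 42.7% and 42.6%, and 21.7% and 17.8% upon washout. Dtx3 went from 28.5% and 24.4% to 4.30% and 3.65%. Dtx2 was between 7.14% and 7.65% in GSI and Dtx4 between 2.52% and 4.13%, and both were at or below 2.41% upon washout. For each of the 5 genes the shares of the conditions did not overlap, and the two-sided exact permutation test gave p = 0.333, the smallest value that 2 against 2 libraries allow. Shares add up to a fixed total, so the higher share of Dtx1 lowers the sum of the others, and the 5 shares are not separate observations. The lower share of Dtx3l goes with a higher CPM, and that of Dtx2 with a log2 fold change of -0.37.

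**Figure D3:**
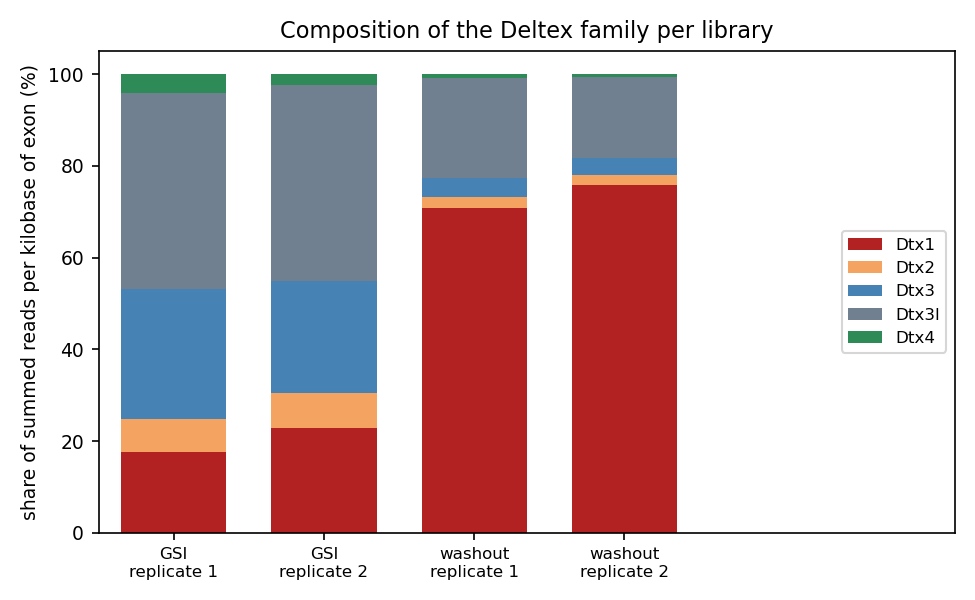
Share of each Deltex gene in the summed RPKM of the family (%), one stacked bar per library, from 0 to 100%. The Dtx1 segment covers 17.6% and 22.9% in GSI and 70.7% and 75.8% upon washout.

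Nrarp, a Notch target whose product feeds back on the NICD, rose as well. It had 20.7 and 22.3 CPM in the GSI libraries and 46.7 and 60.5 CPM in the washout libraries. The lower washout library was above the higher GSI library by more than the spread within either condition. The log2 fold change was 1.31 (standard error 0.152, 95% interval 0.94 to 1.68, adjusted p = 0.00104), a 2.48-fold rise. The interval includes values below 1, and tested against a log2 fold change of 1 by glmTreat the adjusted p was 0.12. Per length, Dtx1 was 1.23 and 1.59 times the level of Nrarp in GSI and 4.84 and 5.52 times upon washout, with no overlap between the conditions. Nrarp lies on chromosome 2 from 25036278 to 25038850 (plus strand) and overlaps no other annotated gene.

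The 2 Numb genes encode phosphotyrosine-binding adaptors that link Notch to clathrin-dependent endocytosis. Numb had 37.2 and 39.8 CPM in the GSI libraries and 24.1 and 26.6 CPM in the washout libraries. Numbl had 17.9 and 15.4 CPM in the GSI libraries and 10.7 and 10.3 CPM in the washout libraries. Both were lower in the washout libraries without overlap of the groups. The log2 fold change was -0.60 for Numb (standard error 0.114, adjusted p = 0.00597) and -0.67 for Numbl (standard error 0.153, adjusted p = 0.0119), and neither reached the fold threshold. The value of Numbl came to -0.33 (adjusted p = 0.132) with the GC and length offsets, and its adjusted p was 0.089 without GSI replicate 1. Per length, Numb was 4.72 and 5.85 times the level of Numbl in GSI and 5.12 and 5.89 times upon washout, ranges that overlap. Numb is on chromosome 12 from 85134984 to 85262884 (minus strand). Numbl is on chromosome 7 from 28043452 to 28067163 (plus strand) and shares 85 exonic bases with Adck4 on the same strand, which had a log2 fold change of -0.96.

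Fbxw7 and Itch, the ubiquitin ligase components that act on the NICD and the receptor, were close to their GSI levels. Fbxw7 had 104 and 92.5 CPM in the GSI libraries and 99.6 and 90.9 CPM in the washout libraries, and the groups overlapped. Its log2 fold change was -0.04 with a 95% interval of -0.30 to 0.21 (adjusted p = 0.746). Itch had 115 and 109 CPM in the GSI libraries and 104 and 91.4 CPM in the washout libraries, slightly lower in both washout libraries. Its log2 fold change was -0.20 with a 95% interval of -0.44 to 0.05 (adjusted p = 0.157). Both intervals lie within the fold threshold, so a change past it in either direction was outside the 95% range for these genes. Fbxw7 spans chromosome 3 from 84619190 to 84783120 (plus strand) and shares 135 exonic bases with the antisense pseudogene Dear1, which was at 3.44 and 3.22 CPM in the GSI libraries and 2.97 and 3.13 CPM in the washout libraries. Itch spans chromosome 2 from 154959245 to 155052591 (plus strand).

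Ranked by RPKM, the order of the members differed between the conditions, with Dtx1 and Nrarp further up and Dtx3 further down upon washout. In GSI Dtx3l was highest (24.0 and 25.7 RPKM), followed by Dtx3 (16.1 and 14.7), Fbxw7 (14.8 and 13.1), Dtx1 (9.88 and 13.8) and Itch (11.8 and 11.2). Neighbors from Dtx3 to Itch overlapped in this order. Below them came Numb (9.73 and 10.4 RPKM), Nrarp (8.05 and 8.68) and Dtx2 (4.02 and 4.62), and then Dtx4 (2.33 and 1.52) and Numbl (2.06 and 1.78), which overlapped. Upon washout Dtx1 was highest (87.7 and 129.8 RPKM), followed by Dtx3l (26.95 and 30.4), Nrarp (18.1 and 23.5), Fbxw7 (14.1 and 12.9) and Itch (10.7 and 9.40). Numb (6.29 and 6.97 RPKM), Dtx3 (5.33 and 6.25), Dtx2 (2.99 and 3.75), Numbl (1.23 and 1.18) and Dtx4 (1.03 and 1.11) were lowest. No neighbors in the washout order overlapped, although Numb and Dtx3 nearly touched.

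For Dtx1 and Dtx3, the members with the largest rise and fall, the genes with the most similar profile were taken from 9287 genes by the distance between log2 CPM values centered on each gene's mean, over the 4 libraries. Nearest to Dtx1 were Arhgef10l (distance 0.306), Bcat1 (0.403) and Hey1 (0.461). Arhgef10l had 14.9 and 22.4 CPM in the GSI libraries and 176 and 230 CPM in the washout libraries, with replicate 2 higher in each condition as for Dtx1. Nearest to Dtx3 were Lcp2 (distance 0.0584), Gmfg (0.0907) and Pnrc1 (0.108). Lcp2, which encodes the T-cell receptor adaptor SLP-76, had 140.5 and 130.2 CPM in the GSI libraries and 48.7 and 54.0 CPM in the washout libraries. With 4 libraries in 2 groups, such likeness rests mostly on the group difference.

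Other genes of the pathway were taken from 11 lists of receptors, processing enzymes, RBPJ cofactors, target repressors, related ligases, partners and substrates. Of the 100 tested genes in these lists, 8 rose and 13 fell past both thresholds, shares close to the 7.74% and 11.7% of all tested genes. Their median log2 fold change was -0.10.

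**Figure D4:**
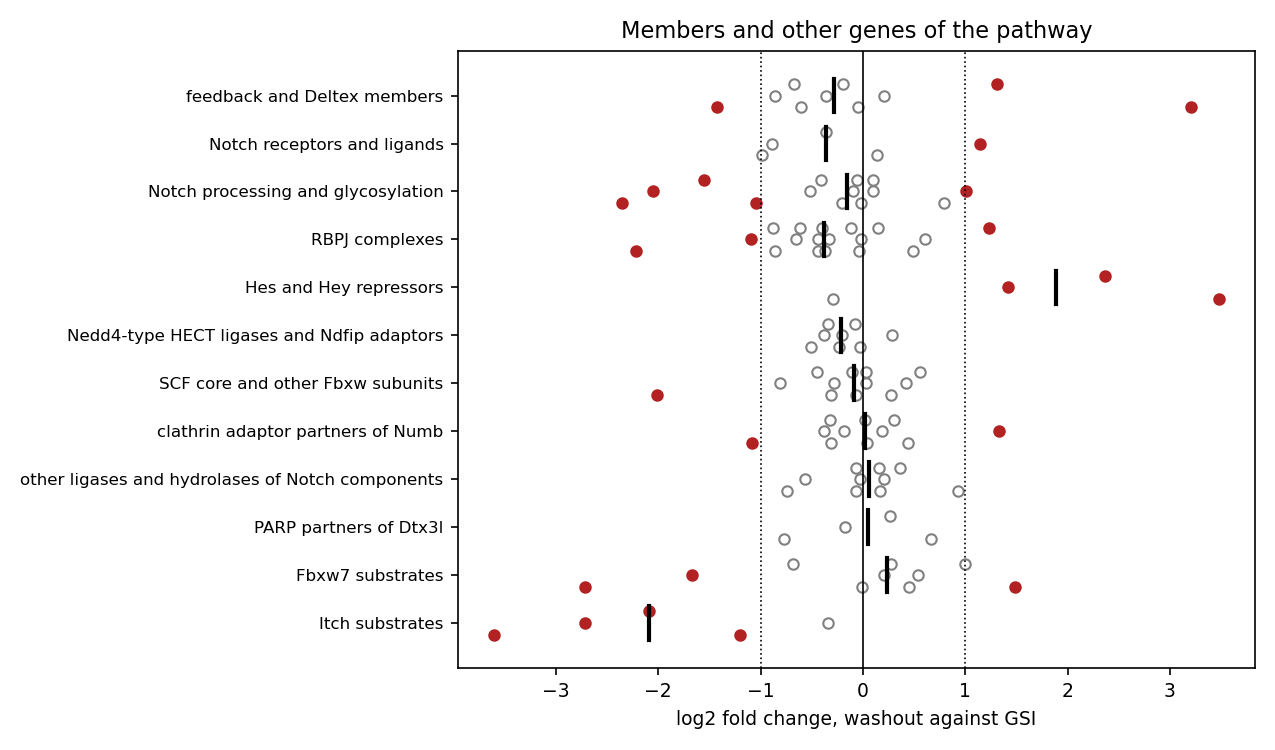
Log2 fold change upon washout of the tested genes of each list, with filled circles past both thresholds, a black bar at the list median and dotted lines at -1 and 1. The median is 1.89 for the Hes and Hey genes and -2.09 for the Itch substrates, and the other medians lie between -0.38 and 0.24.

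Among the receptors and ligands, 5 of 9 were tested and Notch1 alone was called, with 506 and 636 CPM in the GSI libraries and 1184 and 1332 CPM in the washout libraries. Its log2 fold change of 1.14 came to 0.98 without GSI replicate 1 and to 0.94 with the total count as scaling, below the threshold, and to 1.73 with the GC and length offsets. Of the 14 processing and glycosylation genes, 1 rose and 4 fell. Mfng, a Fringe glycosyltransferase, went from 44.8 and 49.1 to 91.3 and 97.6 CPM. Its log2 fold change of 1.01 came to 0.94 without GSI replicate 1, 0.98 without washout replicate 2 and 0.81 with the total count as scaling. Psen2 (-1.05) and Aph1b (-2.05), both subunits of γ-secretase, and the proprotein convertase Furin (-1.55) were the lower ones besides Lfng. The value of Psen2 was -0.71 (adjusted p = 0.0583) without GSI replicate 1 and -0.98 without washout replicate 2, and -0.94 with the GC and length offsets. Lfng had 24 and 17 counts with the inhibitor and 4 and 4 after it was washed out, a log2 fold change of -2.36, and its adjusted p was 0.068 with DESeq2, 0.0742 without GSI replicate 2 and 0.169 without washout replicate 1.

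Of the 18 genes of RBPJ complexes, 1 rose and 2 fell, while Rbpj itself had a log2 fold change of -0.02 (adjusted p = 0.924). The acetyltransferase gene Kat2a rose from 58.9 and 67.0 to 143 and 153 CPM. The coactivator gene Maml2 fell from 4.06 and 4.11 to 0.911 and 0.819 CPM, and Maml3 had a log2 fold change of -1.10, or -0.84 with the GC and length offsets. In the Hes and Hey list 4 of 7 genes were tested, and Hes1, Hey1 and Heyl rose while Hes6 (-0.29) was not called. The log2 fold change of Hes1 was 1.42, but 0.92 without GSI replicate 2 and 2.41 without GSI replicate 1, and its adjusted p with DESeq2 was 0.0715. Hey1 went from 16.2 and 18.1 to 180 and 200 CPM.

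Among the 8 tested Nedd4-type ligases and Ndfip adaptors, relatives and activators of Itch, none was called, with a median log2 fold change of -0.22. With the adjusted p-value alone, 3 were lower (Smurf1, Smurf2 and Ndfip1). Of 12 tested SCF subunits, relatives and ligase partners of Fbxw7, only Fbxw10 was called, with 2.56 and 3.98 CPM in the GSI libraries and 0.911 and 0.595 CPM in the washout libraries. Of the 11 clathrin adaptor partners of Numb, the scaffold gene Itsn1 rose (1.16 and 1.37 to 3.32 and 2.90 CPM) and the kinase gene Aak1 fell (139 and 148 to 69.5 and 66.4 CPM). The adjusted p of Itsn1 was 0.0807 without GSI replicate 1 and 0.0692 without washout replicate 1, and the log2 fold change of Aak1 came to -0.99 with the GC and length offsets. None of the 10 other tested ligases and hydrolases of Notch components was called, and Usp10 was the highest of them at a log2 fold change of 0.93. With the GC and length offsets Usp10 came to 1.08 and was called.

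Transcripts of proteins that Fbxw7 and Itch are known to target for degradation were listed as well. Of 10 tested Fbxw7 substrates, Ccne2 rose and Jun and Gata3 fell. Ccne2, a cyclin gene, went from 42.5 and 41.9 to 143 and 92.7 CPM, and Myc (adjusted p = 0.00102) was just below the fold threshold, or at 1.09 and called with the GC and length offsets. Of 5 tested Itch substrates, Jun, Junb, Cflar and Txnip fell, and Lats1 (-0.34) was not called. Txnip, which encodes an arrestin-like regulator of glucose uptake, went from 1719 and 1426 to 144 and 115 CPM. Jun, which stands in both lists and encodes a subunit of the transcription factor AP-1, had 27.2 and 9.66 CPM in the GSI libraries and 3.58 and 1.79 CPM in the washout libraries. Its log2 fold change of -2.72 came to -1.79 without GSI replicate 1. These are RNA levels, and protein levels were not measured in these libraries.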

How the data were processed

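RNA-Seq libraries (total RNA, stranded kit with removal of ribosomal RNA) were trimmed by the authors with trimGalore, aligned to mm9 with HISAT2 2.2.1 and assigned to iGenomes genes with summarizeOverlaps. Raw counts were deposited, with no normalization. The strand setting and overlap mode of the counting are not given in the sources used here. Per the labels, the submitters also used DESeq2 1.24.0, whereas the methods of the study name a later version.

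Counts were compared with edgeR 4.0.16 (R 4.3.3) by filterByExpr, TMM scaling and the quasi-likelihood test without covariates, with Benjamini-Hochberg adjustment over all 12266 tested genes. TMM factors were between 0.930 and 1.08. Standard errors were derived from the F statistic. At 3 counts the limit of detection was 0.0881 to 0.223 CPM, which covers counting error only. Positions, exon lengths and GC content came from GENCODE vM1 (mm9), in which 20641 symbols matched a single gene. The scripts were tested on simulated data. Named genes outside the members were the largest rise and fall called in each list, Parp9 and the 3 nearest profiles of Dtx1 and Dtx3; further genes are named where a count is small, after their values were seen. The members and lists were chosen with earlier results of these data known. Alternatives included DESeq2 1.42.0, RLE, total count, filters, thinning, glmTreat, offsets for GC content and exon length for the 10962 genes with these features, a replicate block and leaving out each library. The RefSeq promoter windows (GRCm38.p6) were replaced by windows before the GENCODE vM1 start after their motifs had been seen.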

Additional observations from a re-analysis of the deposited data

How the results depend on the processing

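Across 16 alternatives, 152 of 160 member values kept their direction and side of the thresholds, and 158 kept their direction. The glmTreat and adjusted p-value alone settings reuse the main log2 fold changes, so they could not change a direction. In the refitted alternatives, a shift in adjusted p of a member that stayed uncalled was not counted. For Dtx2 the adjusted p was 0.0884 in the main test and 0.00263 with the replicate block. The exceptions in direction were Fbxw7 at 0.039 without GSI replicate 1 and 0.03 without washout replicate 2, in a range of -0.11 to 0.039 over the libraries left out. With glmTreat, 308 genes were higher and 501 lower, 1 member was higher (Dtx1, as Nrarp at 1.31 had an adjusted p of 0.12), and 2 and 6 genes of the other lists were called. With the total count alone, the median of all genes was -0.21, and 586 genes were higher and 1963 lower, against 950 and 1437 with TMM. Dtx4 was then at -1.07, or -0.86 relative to that median, which made 2 members lower. With the adjusted p-value alone, 3315 and 3120 genes, 2 and 4 members and 20 and 35 list genes were called, with Dtx4 at -0.86, Numb at -0.60 and Numbl at -0.67. Leaving out a library gave 881 to 1064 genes higher and 1118 to 1375 lower, 2 members higher and 1 to 2 lower (Dtx4 from -1.11 without GSI replicate 2 to -0.51 without GSI replicate 1), and 6 to 8 and 12 to 14 list genes. The cause of these shifts was not tested beyond the construction of each alternative.

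Deviations of same-numbered libraries from their group means correlated at 0.497, but with 2 pairs and no shared batch in the labels the numbers were not taken as pairing. With the replicate block, Dtx1 was at 3.19. Past both thresholds 2 members were higher and 1 lower, beside 981 and 1576 of all tested genes. The adjusted p with the block was 0.00263 for Dtx2, 0.0356 for Dtx3l and 0.0368 for Itch. With the GC and length offsets and the block these were 0.529, 0.142 and 0.0104, and with thinned counts and the block 0.00169, 0.168 and 0.0254. At the adjusted p-value alone, 6 members were lower with the block or with the total count. The share of all tested genes at that threshold was not computed for these 2 fits. The count of 6 can therefore not be set against the background, and with the total count the median of all genes was itself -0.21. With 2 libraries a condition, the fitted spread borrows from all genes, and a lone library left in its condition is assumed to vary like the other group.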
